A study of Mus musculus with 56 samples.

Results

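Hearts of mice fed only by day (daytime-restricted feeding, DRF) were compared with hearts of mice fed only by night (nighttime-restricted feeding, NRF, the reference) at zeitgeber time (ZT) 20, which lies within the dark, active phase. The 8 libraries were chosen by their sample names, which give regimen and time: 4 DRF and 4 NRF libraries of the 56 in the series. At this time the NRF mice had access to food and the DRF mice did not. All animals were female C57BL/6J mice, 9 weeks old at collection, entrained to 12 h light and 12 h dark, fed normal chow ad libitum for 7 days and then assigned to 1 of the regimens for 7 days. The labels list no transgene, allele or drug. Polyadenylated RNA was sequenced, and the regimens were sampled at 7 ZTs with 4 replicates each. The labels do not say that same-numbered libraries of the regimens share a litter, cage or day. Each replicate is taken here as 1 heart, as the labels list it. The p-values and SE of single genes rest on the spread within groups pooled over all 56 libraries. They do not measure the spread of the 8 ZT20 libraries alone, except where those were fitted alone.

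The heart takes up fatty acids, glucose, lactate and ketone bodies and shifts between them with feeding. In the fasted state fatty acids leave adipose tissue, activate the nuclear receptor PPARα in cardiomyocytes, and induce genes for fat uptake, the carnitine shuttle, uncoupling proteins and Pdk4, the kinase that switches off pyruvate dehydrogenase. In the fed state insulin keeps FOXO transcription factors out of the nucleus, and protein synthesis and the folding machinery of the cytosol and endoplasmic reticulum (ER) are active. Each heart cell also holds a circadian clock that can keep its own phase while food arrives at another time of day.

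The libraries held 32185580 to 40725490 reads under DRF and 34621025 to 40633419 reads under NRF, recovered as whole reads from the deposited values. Mitochondrially encoded genes took 22.4 to 24.8% of the reads under DRF and 19.4 to 20.4% under NRF. These ranges did not overlap (two-sided exact permutation test over the 8 libraries, p = 0.0286, the smallest that 4 against 4 allows). Cardiomyocyte markers (Myh6, Tnnt2, Tnni3, Actc1, Ryr2 and Pln) summed to 17695 to 23843 TPM (transcript abundance, as reads per exonic base scaled to a common total) under DRF and 22432 to 24920 TPM under NRF, so the labelled tissue carried its defining genes in each library. Fibroblast markers (Pdgfra, Dcn, Lum, Tcf21, Col1a1 and Dpt) summed to 634 to 834 TPM under DRF and 861 to 974 TPM under NRF, and macrophage markers (Cd68, Adgre1, Csf1r, C1qa, C1qb and Mrc1) to 382 to 441 and 498 to 583 TPM. Neither sum overlapped between the regimens, and in bulk tissue fewer cells of a type and less RNA per cell cannot be told apart. Blood and atrial content varied within the regimens: hemoglobin and Alas2 transcripts summed to 1863 to 51925 TPM under DRF and 2876 to 40462 TPM under NRF, and atrial markers (Nppa, Myl7, Myl4, Sln and Bmp10) to 94.5 to 2620 and 433 to 1590 TPM.

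Of 13878 genes whose average level reached 1 TPM, 2051 (14.8%) differed between the regimens at ZT20 at an adjusted p under 0.05 (limma, Benjamini-Hochberg), 470 higher (3.39%) and 1581 lower (11.4%) under DRF. The split depends on scaling. When each library was rescaled by its median ratio to the mean library, which moves the median difference of all genes from -0.07 to -0.01 on the log2 scale, 1204 genes (8.68%) were higher and 1175 (8.47%) lower. With mitochondrially encoded genes left out before scaling, 1156 were higher and 575 lower (7.63% and 3.79% of the 15153 genes then tested), and the median difference of all genes moved from -0.07 to 0.03. Leaving out 1 ZT20 library gave 2.12% to 3.98% of all genes higher and 6.16% to 13.4% lower, so counts of list members without a library stand against these shares. With TPM and median-of-ratios scaling alike 469 genes (3.38%) were called higher and 1116 (8.04%) lower, and no gene was called in opposite directions. By at least 0.5 on the log2 scale 145 genes (1.04%) were higher and 251 (1.81%) lower, and 383 of these 396 passed with these 2 scalings. That count does not cover the scaling without mitochondrially encoded genes. There some differences of this size lost their call, such as Col3a1 (adjusted p = 0.0616) and Cry1 (0.0625). All 4 DRF values lay above all 4 NRF values in 618 genes (4.45%) and below them in 2120 (15.3%). Without DRF replicate 1 the count of genes that differed was 1165, without NRF replicate 1 it was 1329 and without NRF replicate 2 it was 1356.

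**Figure D1:**
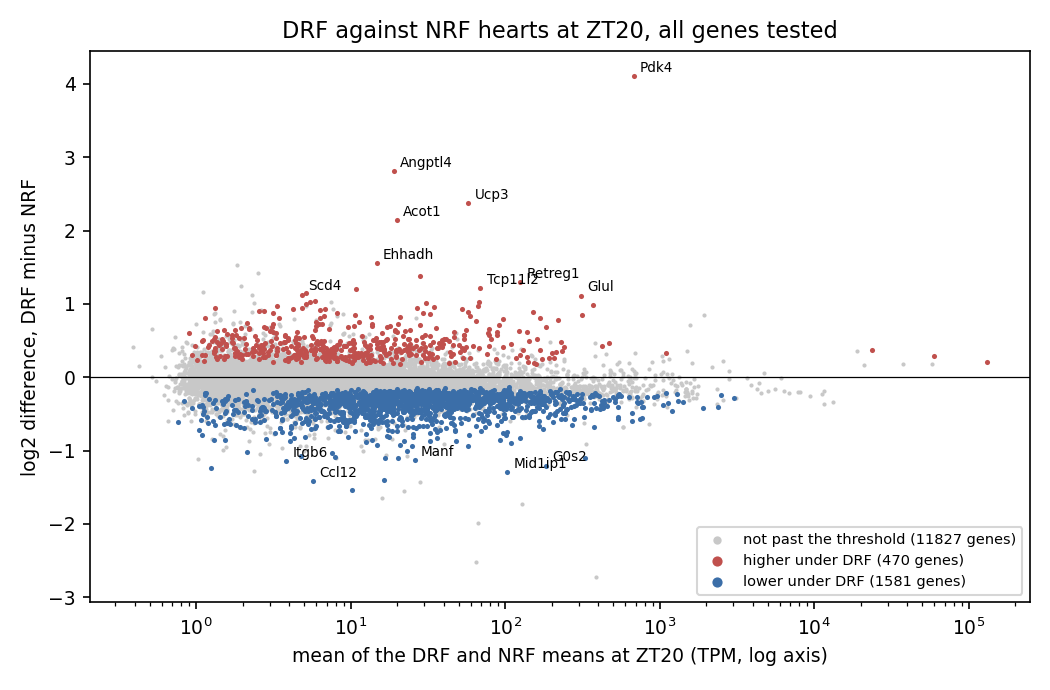
Each point is a gene tested at ZT20, placed by the mean of its DRF and NRF levels (TPM, log axis) and its log2 difference (DRF minus NRF). The 470 genes higher under DRF (red) reach 4.11 for Pdk4, and among the labelled lower genes (blue, 1581 in all) Ccl12 lies at -1.41.

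The gene with the largest difference was Pdk4, pyruvate dehydrogenase kinase (ENSMUSG00000019577, mm10 chr6:5483351-5496309, minus strand). Its level was 1445, 1593, 1134 and 958 TPM in DRF replicates 1 to 4 and 67.9, 66.0, 78.6 and 76.0 TPM in NRF replicates 1 to 4. Every DRF heart thus lay far above every NRF heart, 17.8-fold on the means, with a log2 difference of 4.11 ± 0.46 (SE, adjusted p = 4.24e-08). Angptl4, a secreted inhibitor of lipoprotein lipase (ENSMUSG00000002289, chr17:33773750-33781830, minus strand), stood at 40.7, 54.4, 26.0 and 16.6 TPM under DRF and at 3.42, 3.38, 4.51 and 3.30 TPM under NRF. The DRF hearts differed among themselves over a wide range, yet the lowest of them was above the NRF hearts (2.81 ± 0.58, adjusted p = 0.000956). Ucp3, a mitochondrial uncoupling protein of muscle (ENSMUSG00000032942, chr7:100472990-100486432, plus strand), was at 122, 86.9, 96.1 and 85.8 TPM under DRF and 15.6, 15.4, 21.1 and 19.7 TPM under NRF, a 5.45-fold difference (2.38 ± 0.43, adjusted p = 0.000234).

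A further 8 genes stood out on the higher side with groups that did not overlap. Acot1, a cytosolic acyl-CoA thioesterase, was 33.1 ± 7.02 TPM in DRF hearts against 6.69 ± 1.48 TPM in NRF hearts (mean ± SD over the 4 libraries, as in all values of this form). Ehhadh, the bifunctional enzyme of peroxisomal β-oxidation, averaged 22.6 ± 3.67 and 6.95 ± 0.531 TPM. These were 4.95-fold and 3.25-fold higher and belong to the handling of acyl-CoA. Retreg1, a receptor for autophagy of the ER, was 2.48-fold higher (178 ± 20.8 against 71.9 ± 10.9 TPM), and Glul, glutamine synthetase, 2.18-fold (423 ± 63.8 against 194 ± 19.3 TPM). Tcp11l2 (1.21 ± 0.15 on the log2 scale), the desaturase gene Scd4 (1.13 ± 0.32), the small GTPase gene Rasd1 (1.04 ± 0.19) and Adra1a, the α1A-adrenergic receptor (1.03 ± 0.16), completed the set. Scd4 lost its call without NRF replicate 1 (adjusted p = 0.0596).

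**Figure D2:**
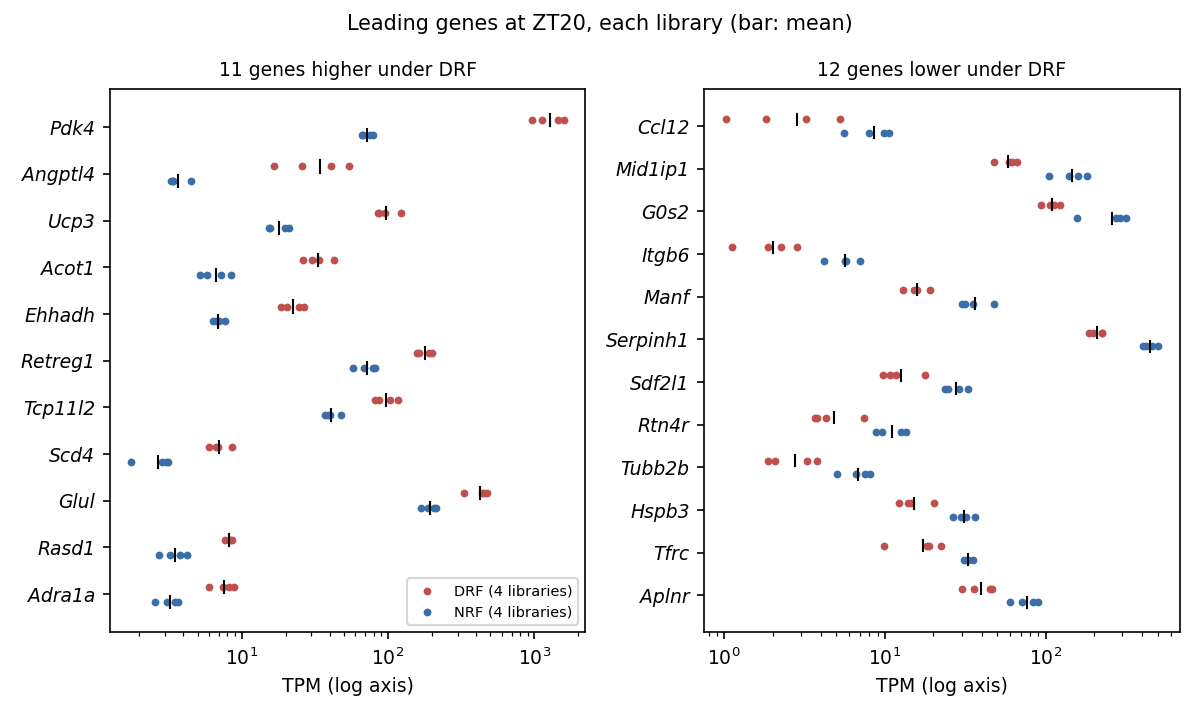
Levels (TPM, log axis) of 11 genes most higher and 12 most lower under DRF at ZT20, chosen among genes that passed with both scalings and whose groups did not overlap. Points are single libraries (4 DRF red, 4 NRF blue) and bars are means. Pdk4 runs from 958 to 1593 TPM under DRF and from 66.0 to 78.6 TPM under NRF.

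The gene lists here and below were chosen with earlier results of these data known, so their counts are a description and not independent evidence. In fatty acid uptake and triglyceride handling more members were higher than lower. Of 25 members tested, 10 were higher, 1 was lower and 14 were not called, against 3.39% of all genes higher and 11.4% lower. The median log2 difference of the 25 was 0.20 against -0.07 for all genes. After Angptl4 the largest were Gpam, which begins glycerolipid synthesis (123 ± 12.4 against 70.7 ± 4.78 TPM, 0.79 ± 0.19), and Plin4, a lipid droplet coat protein (94.9 ± 13.9 against 62.8 ± 3.02 TPM, 0.58 ± 0.15). The 1 lower member was G0s2, an inhibitor of adipose triglyceride lipase, at 106, 93.7, 122 and 114 TPM under DRF and 290, 317, 275 and 157 TPM under NRF. DRF hearts were 2.38-fold below NRF hearts on the means, with no overlap (-1.20 ± 0.26, adjusted p = 0.00166). Lipe, hormone-sensitive lipase, was higher (26.2 ± 1.73 against 17.4 ± 1.95 TPM, adjusted p = 0.0132).

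Of 26 genes of the carnitine shuttle and mitochondrial β-oxidation, 2 were higher and 1 was lower, against 3.39% and 11.4% of all genes, with a median log2 difference of 0.06. With mitochondrially encoded genes left out before scaling 8 were higher and none was lower, beside 7.63% and 3.79% of all genes. Cpt1a, the liver-type isoform of the outer-membrane carnitine palmitoyltransferase, was at 48.5, 40.3, 44.9 and 51.2 TPM under DRF and at 23.2, 24.3, 23.0 and 22.5 TPM under NRF, 1.99-fold higher without overlap (0.96 ± 0.17, adjusted p = 0.000248). Mlycd, malonyl-CoA decarboxylase, which lowers the inhibitor of that enzyme, was the other (106 ± 10.1 against 70.5 ± 6.15 TPM, 0.58 ± 0.12). Acot2, the mitochondrial acyl-CoA thioesterase, was 89.4 ± 15.9 against 44.7 ± 3.93 TPM (0.97 ± 0.19), so that 3 of the 9 uncoupling proteins and thioesterases were higher and none was lower. Among 16 peroxisomal genes 2 were higher, Ehhadh among them, and 1 was lower. None of them was lower with median-of-ratios scaling, and 0 to 2 were lower with a ZT20 library left out. Acox3 (5.28 ± 0.836 against 4.77 ± 0.439 TPM, adjusted p = 0.366) and the dehydrogenase gene Acad11 (23.8 ± 3.52 against 22.4 ± 1.06 TPM, adjusted p = 0.561) did not pass. Those genes, with Cpt1a, Ucp3, Lipe and Ehhadh, were picked by the study on these samples, so their direction is not independent evidence.

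Of 42 genes of glucose uptake, glycolysis and pyruvate dehydrogenase, 6 were higher and 3 lower (median -0.01), against 3.39% and 11.4% of all genes. The lower ones were the glycolytic enzymes Pgam1 (-0.56) and Pgk1 (-0.21) and the mitochondrial pyruvate carrier subunit Mpc2 (-0.31), and these 3 were named after their values were seen. With mitochondrially encoded genes left out before scaling 8 were higher and 1 was lower, beside 7.63% and 3.79% of all genes. With a ZT20 library left out 4 to 6 were higher and 1 to 5 lower. Besides Pdk4, the higher ones included Pdp2, the phosphatase that reactivates pyruvate dehydrogenase (13.99 ± 2.58 against 7.24 ± 0.386 TPM, 0.85 ± 0.14, adjusted p = 0.000112), and Pfkfb2, a heart enzyme that sets fructose-2,6-bisphosphate (17.5 ± 2.06 against 9.54 ± 2.09 TPM, 0.82 ± 0.18). Txnip, which restrains glucose uptake, was 493 ± 154 against 246 ± 62.2 TPM. It passed with all libraries (0.99 ± 0.30, adjusted p = 0.022) but not without DRF replicate 1 (0.0634), DRF replicate 2 (0.0939) or NRF replicate 4 (0.0832). The count of lower members was 1 without DRF replicate 1 or NRF replicate 2 and 5 without DRF replicate 3. Of 7 ketone genes tested 1 was higher and 1 lower. The lower one was Slc16a1, the monocarboxylate transporter for lactate and ketone bodies (102 ± 6.24 against 139 ± 14.01 TPM, -0.43 ± 0.11), which lost its call with mitochondrially encoded genes left out (adjusted p = 0.0542). Among 17 PPAR receptors and cofactors 3 were higher and 1 lower, led by the orphan receptor Esrrg (17.04 ± 2.39 against 11.6 ± 0.687 TPM, 0.51 ± 0.11). That higher count was 1 without DRF replicate 1, DRF replicate 4, NRF replicate 3 or NRF replicate 4.

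Of 30 insulin and FOXO responsive genes 15 were higher and none was lower, against 3.39% and 11.4% of all genes, with a median log2 difference of 0.30 against -0.07 for all genes, and 9 were higher without NRF replicate 3. Fbxo32 (atrogin-1), a muscle ubiquitin ligase and FOXO target, was at 49.5, 40.2, 40.5 and 39.3 TPM under DRF and at 22.5, 20.7, 21.3 and 26.9 TPM under NRF. The groups were apart (0.87 ± 0.22, adjusted p = 0.00552), and the highest DRF heart was replicate 1. Pik3ip1, an inhibitor of PI3 kinase, was 30.1 ± 6.01 against 18.6 ± 2.19 TPM (0.65 ± 0.17). Bnip3, a mitophagy receptor, was 167 ± 6.57 against 109 ± 4.42 TPM (0.62 ± 0.13), and Sesn1, a sestrin that restrains mTORC1, was 93.1 ± 12.9 against 60.6 ± 6.36 TPM (0.61 ± 0.10, adjusted p = 0.000101). Trim63 (MuRF1), the other muscle ubiquitin ligase, was 168 ± 22.4 against 119 ± 7.501 TPM (0.49 ± 0.13, adjusted p = 0.00706). Of 12 higher members with a RefSeq promoter (GRCm38.p6), Trim63 held the FOXO element GTAAACA within 250 bases before its start, on either strand. The FOXO element occurred in 3.54% of all genes with a promoter. Next to it lay the glucocorticoid element, found in 0.44% of genes with a promoter and in no other higher member, and the sequence is shown because both lie in 1 short stretch, with the elements in capitals, at Trim63 (chr4:134314892-134314952, plus strand).
Trim63: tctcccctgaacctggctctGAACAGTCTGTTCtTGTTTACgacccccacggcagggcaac

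Among glucocorticoid responsive genes 5 of 18 were higher and none was lower (median 0.24), against 3.39% and 11.4% of all genes. Mt1, the metallothionein that binds zinc and copper, was at 360, 370, 483 and 394 TPM under DRF and at 233, 218, 253 and 187 TPM under NRF (0.85 ± 0.15, adjusted p = 0.00017). Klf9, a hormone-responsive transcription factor gene, was 95.7 ± 4.18 against 66.5 ± 3.12 TPM (0.52 ± 0.14). The groups of both genes did not overlap. Mt2 was 7.47 ± 3.00 against 2.88 ± 1.48 TPM with overlap, and lost its call without NRF replicate 4 (adjusted p = 0.0601). Cdkn1a, a cell cycle inhibitor, was 37.0 ± 10.2 against 23.8 ± 3.27 TPM and lost its call without DRF replicate 2 (adjusted p = 0.0957), 3 (0.169) or 4 (0.0548) and without NRF replicate 1 (0.115), 2 (0.0652) or 4 (0.0897). The count of higher members fell to 3 without DRF replicate 2, DRF replicate 3, NRF replicate 1 or NRF replicate 2, and to 2 without NRF replicate 4.

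On the lower side the 12 leading genes served several functions. Ccl12, a monocyte chemokine, was at 1.82, 5.27, 1.02 and 3.21 TPM under DRF and at 5.59, 9.81, 8.02 and 10.7 TPM under NRF (-1.41 ± 0.28, adjusted p = 0.000749). The groups did not overlap, but DRF replicate 2 came close to the lowest NRF heart, and the macrophage marker sums given above moved the same way, a link that was not tested. Mid1ip1, an activator of acetyl-CoA carboxylase, was at 59.4, 47.6, 66.4 and 61.9 TPM under DRF and at 139, 182, 160 and 106 TPM under NRF. It was 2.50-fold lower in DRF hearts (-1.29 ± 0.16, adjusted p = 6.39e-07). Itgb6, an integrin subunit, was 2.02 ± 0.722 against 5.62 ± 1.17 TPM (-1.15 ± 0.16), and Tubb2b, a β-tubulin, was 2.74 ± 0.920 against 6.82 ± 1.34 TPM (-1.08 ± 0.18). Hspb3, a small heat shock protein of muscle, was 15.2 ± 3.44 against 31.2 ± 4.10 TPM (adjusted p = 0.000162). Rtn4r, the Nogo receptor, was -1.09 ± 0.33 and lost its call without DRF replicate 1 (adjusted p = 0.0687), DRF replicate 2 (0.0598), NRF replicate 1 (0.0677) or NRF replicate 3 (0.0556). Aplnr, the apelin receptor, was 39.4 ± 7.69 against 76.3 ± 12.9 TPM (-0.94 ± 0.26, adjusted p = 0.0103).

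Among chaperones of the ER and genes of the unfolded protein response, 13 of 24 were lower and 1 was higher, against 11.4% and 3.39% of all genes, with a median log2 difference of -0.38. Leaving out any ZT20 library gave 10 to 16 lower members. In the same list 12 were lower with median-of-ratios scaling, where 8.47% of all genes were. With mitochondrially encoded genes left out 11 were lower, beside 3.79% of all genes. Manf, a secreted ER stress protein, was at 12.98, 19.2, 15.9 and 15.3 TPM under DRF and at 31.5, 47.9, 35.4 and 30.0 TPM under NRF (-1.13 ± 0.22, adjusted p = 0.00043). Sdf2l1, a chaperone cofactor, was at 11.8, 17.9, 9.76 and 10.8 TPM under DRF and at 23.8, 32.9, 29.1 and 24.8 TPM under NRF (-1.10 ± 0.25, adjusted p = 0.00268). In both genes replicate 2 was the highest of its regimen, and the regimens did not overlap. Hyou1, a large ER chaperone, was 12.1 ± 0.779 against 22.2 ± 4.32 TPM (-0.81 ± 0.16). The 1 higher member was Herpud1, which serves ER-associated degradation, at 291, 234, 329 and 262 TPM under DRF and 172, 159, 181 and 136 TPM under NRF (0.78 ± 0.13, adjusted p = 0.000106).

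Of the 13 lower ER genes, 11 had a RefSeq promoter, and 6 of these (54.5%) held the ER stress element within 250 bases before the start, that is CCAAT and CCACG with 9 bases between them, on either strand. The element was added to the search after the values were known. It occurred in 0.13% of all 27025 genes with a promoter and in 8 of the 21 members tested that had a promoter, so members that did not pass held it too. The 6 stretches are shown with the element in capitals and 20 bases on each side, in the sense of the gene, at Calr (chr8:84847055-84847113, minus strand), Creld2 (chr15:88819500-88819558, plus strand), Dnajc3 (chr14:118937807-118937865, plus strand), Hsp90b1 (chr10:86705513-86705676, minus strand), Hspa5 (chr2:34772005-34772063, plus strand), Pdia6 (chr12:17266471-17266529, plus strand).
Calr: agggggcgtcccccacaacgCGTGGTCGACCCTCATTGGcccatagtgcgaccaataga
Creld2: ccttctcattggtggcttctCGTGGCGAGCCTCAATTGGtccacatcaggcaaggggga
Dnajc3: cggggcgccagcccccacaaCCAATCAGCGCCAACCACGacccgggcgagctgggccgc
Hsp90b1: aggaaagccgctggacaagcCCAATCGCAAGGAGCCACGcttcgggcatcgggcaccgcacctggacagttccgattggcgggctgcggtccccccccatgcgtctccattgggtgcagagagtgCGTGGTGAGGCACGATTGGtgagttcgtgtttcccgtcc
Hspa5: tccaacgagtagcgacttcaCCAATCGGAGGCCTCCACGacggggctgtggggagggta
Pdia6: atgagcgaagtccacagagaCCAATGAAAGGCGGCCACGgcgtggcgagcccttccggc

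The 6 genes encode the Hsp70 of the ER (Hspa5, 194 ± 10.1 against 291 ± 57.8 TPM), its Hsp90 (Hsp90b1, 104 ± 10.2 against 142 ± 14.3 TPM), the lectin chaperone calreticulin (Calr, 192 ± 16.5 against 260 ± 17.5 TPM), a protein disulfide isomerase (Pdia6, 53.6 ± 5.76 against 79.6 ± 6.05 TPM), a cochaperone (Dnajc3, 33.6 ± 3.25 against 42.4 ± 2.77 TPM) and an ER stress protein (Creld2, 18.6 ± 4.13 against 32.1 ± 3.13 TPM). Their log2 differences ran from -0.78 for Creld2 to -0.33 for Dnajc3. Hspa5 lost its call without NRF replicate 2 (adjusted p = 0.0712). Hsp90b1 lost it without DRF replicate 1 (0.051), DRF replicate 3 (0.0669) or NRF replicate 2 (0.0839), and with mitochondrially encoded genes left out (0.12). Dnajc3 lost it with the other scaling (adjusted p = 0.106) and without DRF replicate 1 (0.0939), DRF replicate 3 (0.112), NRF replicate 1 (0.0563), NRF replicate 2 (0.116) or NRF replicate 3 (0.0589).

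Among heat shock chaperones of the cytosol and mitochondria 14 of 25 were lower and none was higher (median -0.36), against 11.4% and 3.39% of all genes, and 11 to 15 were lower when any ZT20 library was left out. The lower count was 13 with median-of-ratios scaling and 10 with mitochondrially encoded genes left out, beside 8.47% and 3.79% of all genes. Hsph1, the Hsp110 nucleotide exchange factor, was at 15.6, 13.9, 14.8 and 16.9 TPM under DRF and at 35.1, 29.3, 27.0 and 24.8 TPM under NRF (-0.88 ± 0.19, adjusted p = 0.00135). Hsp90aa1, the inducible cytosolic Hsp90, was 73.6 ± 5.29 against 128 ± 18.6 TPM (-0.78 ± 0.21), and Chordc1, an Hsp90 cochaperone, was 13.1 ± 0.601 against 20.5 ± 2.62 TPM (-0.60 ± 0.14). In these 3 genes the groups were apart. In the 25 genes no member had a difference above 0, but the highest was -0.03, beside a median of -0.07 for all genes. None of the 79 cytosolic ribosomal proteins was above 0 either, so this is not particular to chaperones. Dnaja1, an Hsp40, was 17.9 ± 2.64 against 33.0 ± 9.17 TPM (-0.82 ± 0.22) and lost its call without NRF replicate 1 (adjusted p = 0.0625). Of 11 lower members with a promoter, 5 (45.5%) held the heat shock element, searched as GAA and TTC with 2 bases between, against 7.73% of all genes with a promoter, and 9 of the 20 members tested that had a promoter held it. The element lies in capitals in the stretches of Dnaja1 (chr4:40722324-40722371, plus strand), Dnaja4 (chr9:54699449-54699534, plus strand), Fkbp4 (chr6:128438780-128438827, minus strand), Hspb1 (chr5:135887782-135887849, plus strand), Hspe1 (chr1:55088044-55088091, plus strand), which are shown because Hspb1 and Dnaja4 hold it at 2 places.
Dnaja1: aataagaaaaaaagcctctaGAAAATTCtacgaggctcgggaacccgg
Dnaja4: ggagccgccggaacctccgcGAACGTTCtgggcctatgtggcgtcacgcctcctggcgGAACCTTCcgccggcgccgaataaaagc
Fkbp4: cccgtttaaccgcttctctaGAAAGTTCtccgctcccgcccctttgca
Hspb1: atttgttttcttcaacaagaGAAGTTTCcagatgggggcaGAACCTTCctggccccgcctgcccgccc
Hspe1: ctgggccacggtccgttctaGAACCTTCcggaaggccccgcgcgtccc

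Hspb1, the small heat shock protein Hsp27, was 433 ± 31.2 against 644 ± 43.8 TPM (-0.57 ± 0.15), and Hspe1, the mitochondrial Hsp10, was 158 ± 12.9 against 209 ± 16.4 TPM (-0.41 ± 0.09). Fkbp4 was 282 ± 28.4 against 360 ± 16.2 TPM (-0.36 ± 0.09) and Dnaja4 was 38.4 ± 2.09 against 50.1 ± 2.20 TPM (-0.38 ± 0.09). The element was also present in members whose level did not pass the test, so it does not separate them. Cirbp, a cold-inducible RNA-binding protein, was 28.3 ± 2.44 against 19.5 ± 2.46 TPM. It was higher with all libraries (0.52 ± 0.18, adjusted p = 0.0465), but leaving out any ZT20 library except DRF replicate 4 gave an adjusted p of 0.0549 to 0.119.

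Serpinh1 (Hsp47), the ER chaperone of collagen (ENSMUSG00000070436, chr7:99345376-99353239, minus strand), was at 197, 224, 185 and 226 TPM under DRF and at 502, 463, 407 and 423 TPM under NRF, 2.16-fold lower (-1.11 ± 0.18, adjusted p = 4.6e-05). Of 27 collagen genes 7 were lower, none was higher and 20 were not called, against 11.4% of all genes lower, with a median log2 difference of -0.35. Col3a1, a fibrillar collagen, was at 42.0, 47.9, 33.3 and 46.6 TPM under DRF and at 73.4, 87.9, 53.2 and 83.6 TPM under NRF. The groups were apart (-0.79 ± 0.25, adjusted p = 0.028), yet the call was lost without DRF replicate 1 (0.0633), DRF replicate 3 (0.0905), NRF replicate 1 (0.0584), NRF replicate 2 (0.0931) or NRF replicate 4 (0.0667), and with mitochondrially encoded genes left out (0.0616). The collagen count fell to 1 without DRF replicate 1, DRF replicate 3 or NRF replicate 1, to 2 without NRF replicate 2 or with mitochondrially encoded genes left out, and to 3 without NRF replicate 4. In those fits 3.79% (mitochondrially encoded genes left out) to 11.5% (without NRF replicate 4) of all genes were lower. The fibroblast marker sum shares Col1a1 with the collagen list, and without Col1a1 it was 607 to 801 TPM under DRF and 825 to 928 TPM under NRF. Of the 6 fibroblast markers, 2 were lower by the same test, and of the 6 macrophage markers 1. The part of fibroblast content in these results was not tested.

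**Figure D3:**
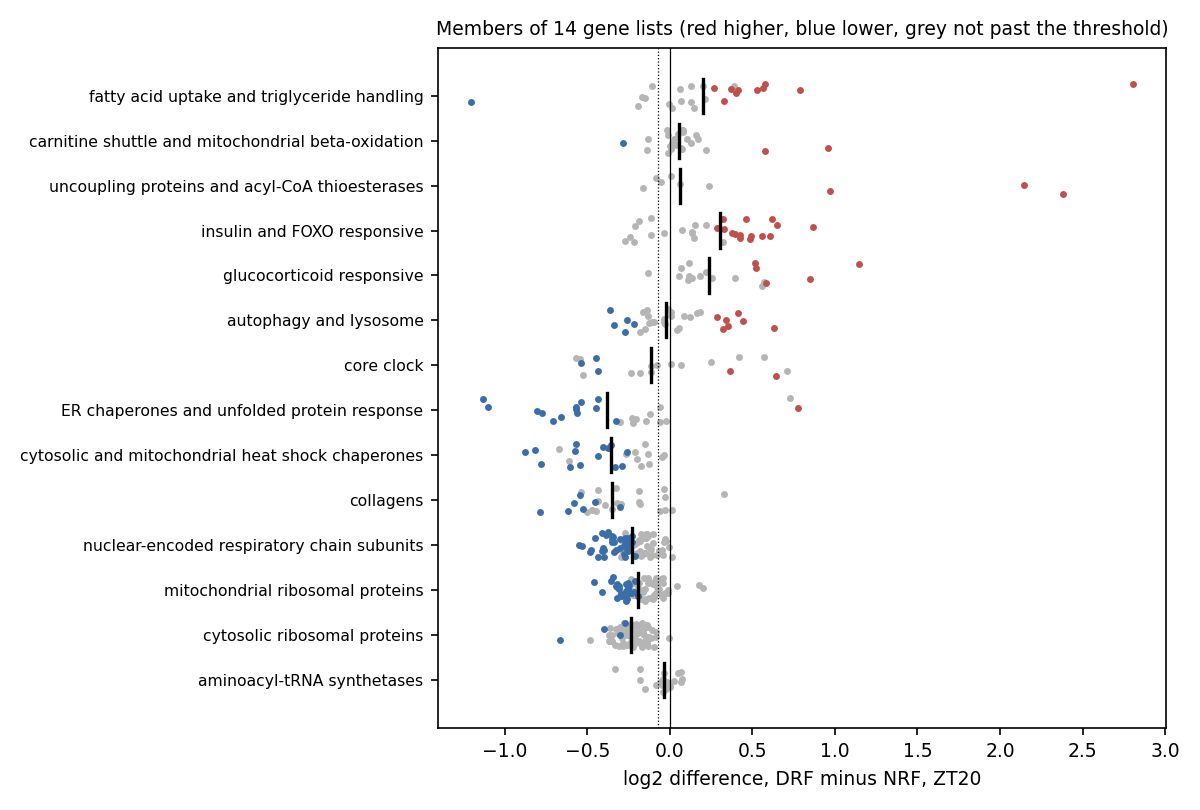
Members of 14 gene lists placed by their log2 difference (DRF minus NRF, ZT20). Red points were higher and blue points lower at an adjusted p under 0.05, grey points did not pass, thick bars are list medians, and the dotted line is the median of all genes (-0.07). Medians run from 0.30 for insulin and FOXO responsive genes to -0.38 for ER chaperones.

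Of 19 core clock genes 2 were higher and 3 lower, against 3.39% and 11.4% of all genes, with a median log2 difference of -0.12. With mitochondrially encoded genes left out before scaling 3 were higher and none was lower, beside 7.63% and 3.79% of all genes. Cry1, a repressor of the clock, was at 16.4, 17.2, 16.6 and 16.99 TPM under DRF and at 24.8, 25.7, 25.04 and 23.99 TPM under NRF. The replicates of Cry1 were close to each other in both regimens, and the groups were apart by -0.54 ± 0.16 (adjusted p = 0.0158), but with mitochondrially encoded genes left out the adjusted p was 0.0625. Npas2, a partner of Bmal1, was at 2.10, 2.05, 2.25 and 3.18 TPM under DRF and at 1.08, 1.39, 0.965 and 1.20 TPM under NRF (0.64 ± 0.18, adjusted p = 0.00999). Rora, an activator of Bmal1, was 0.36 ± 0.10 higher and lost the call without DRF replicate 1 (adjusted p = 0.0532). The output factor Hlf (-0.45 ± 0.15) lost it without DRF replicates 1 or 2 or NRF replicates 1, 2 or 3, and the repressor Bhlhe41 (-0.43 ± 0.14) without DRF replicates 1 or 2 or NRF replicates 1 or 2, with adjusted p of 0.0565 to 0.135, and both lost it with mitochondrially encoded genes left out (0.115 and 0.125).

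The other clock genes did not pass. Nr1d1 (Rev-erbα), the repressor of Bmal1, was at 8.75, 12.6, 6.89 and 9.21 TPM under DRF and at 5.05, 5.37, 4.90 and 5.58 TPM under NRF. The groups did not overlap, and the difference of 0.71 ± 0.27 had an adjusted p of 0.0714, or 0.0412 with median-of-ratios scaling. Arntl (Bmal1) was 6.81 ± 0.626 against 5.59 ± 0.930 TPM, Clock 10.3 ± 0.723 against 9.83 ± 0.819 TPM, Dbp 7.96 ± 1.42 against 8.77 ± 1.98 TPM and Per1 14.1 ± 2.91 against 9.20 ± 2.28 TPM. Per2 was 6.34 ± 0.943 against 9.58 ± 1.74 TPM and Nfil3 18.8 ± 2.49 against 27.7 ± 1.92 TPM, both without overlap and at adjusted p of 0.126 and 0.125. Per3, Cry2, Nr1d2, Tef, Bhlhe40 and Ciart had log2 differences from -0.57 for Ciart to 0.42 for Nr1d2. The lower count was 1 without DRF replicate 1, DRF replicate 2, NRF replicate 1 or NRF replicate 2, and the higher count was 1 without DRF replicate 1. With the 8 ZT20 libraries fitted alone, 3 clock genes were higher and 6 lower, beside 2.77% and 9.69% of all genes.

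Of 24 cardiac ion channel genes 3 were higher and 6 lower (median -0.11), against 3.39% and 11.4% of all genes. Kcnj5, a subunit of the acetylcholine-activated potassium channel, was at 26.3, 29.0, 33.8 and 36.0 TPM under DRF and at 47.9, 57.1, 48.1 and 50.8 TPM under NRF (-0.69 ± 0.11, adjusted p = 4.98e-05). Hcn4, the pacemaker channel, was at 2.96, 2.95, 4.32 and 4.30 TPM under DRF and at 5.85, 6.79, 5.83 and 5.86 TPM under NRF (-0.62 ± 0.14, adjusted p = 0.00172). Both were below in every DRF heart. Kcnd2, a subunit of the transient outward current, was 0.42 ± 0.12 higher and lost the call without DRF replicate 1 (adjusted p = 0.0574), DRF replicate 4 (0.0673) or NRF replicate 3 (0.0576). Kcnj5 and Hcn4 are expressed in atria. The atrial marker sum had a median of 614 TPM under DRF and 1422 TPM under NRF with overlapping ranges, and the median log2 difference of the 5 atrial markers was -1.98, the same direction as these genes, with none past the threshold. The part of atrial content in the result was not tested.

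Without NRF replicate 2, or with mitochondrially encoded genes left out, the lower channel genes numbered 3, where 7.01% and 3.79% of all genes were lower, and the higher ones 1 or 0 without DRF replicates 1, 3 or 4 or NRF replicates 1, 3 or 4. Among 19 calcium handling genes 1 was higher and 2 were lower, near the shares of all genes. The higher one was Ryr2, the calcium release channel, at 112 ± 20.9 against 82.8 ± 7.96 TPM, with a call lost without DRF replicates 1, 3 or 4 or NRF replicate 3 (adjusted p of 0.0578 to 0.0976). Of 19 β-adrenergic genes Pde3a, a phosphodiesterase of cyclic AMP, was higher (20.04 ± 1.76 against 13.8 ± 1.61 TPM, 0.51 ± 0.10, adjusted p = 0.000749). Of 27 sarcomere genes 2 were higher and 2 lower, against 3.39% and 11.4% of all genes. With median-of-ratios scaling 3 were higher and none was lower, and leaving out a ZT20 library gave 1 to 3 higher and 0 to 3 lower. Myom2, a protein of the M-band, was 225 ± 17.8 against 141 ± 18.7 TPM (0.68 ± 0.14, adjusted p = 0.000864).

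Of 77 nuclear-encoded respiratory chain subunits 35 were lower, none was higher and 42 were not called (median -0.23), against 11.4% of all genes lower. Atp5k, an ATP synthase subunit, was 556 ± 85.8 against 772 ± 75.5 TPM (-0.48 ± 0.12), and Ndufa1, a complex I subunit, was 632 ± 162 against 907 ± 72.0 TPM (-0.55 ± 0.11) with overlapping groups and an adjusted p of 0.0503 with the 8 ZT20 libraries fitted alone. Of 77 mitochondrial ribosomal proteins 27 were lower and 50 were not called (median -0.19), with Mrpl12 at 129 ± 17.7 against 178 ± 14.6 TPM. Of 38 proteasome subunits 9 were lower. Of 79 cytosolic ribosomal proteins 4 were lower, a smaller share than the 11.4% of all genes, but their median was -0.23 against -0.07 for all genes. In 32 of these 79 all DRF values lay below all NRF values, against 15.3% of all genes. The immunoproteasome subunit Psmb10 was 48.9 ± 5.12 against 66.1 ± 4.16 TPM (-0.43 ± 0.11). With median-of-ratios scaling the lower counts of the 4 lists were 16, 9, 5 and 1, beside 8.47% of all genes, and with mitochondrially encoded genes left out they were 11, 5, 3 and 1, beside 3.79%. Without DRF replicate 1 they were 13, 12, 4 and 0, beside 6.16%, and without NRF replicate 3 they were 18, 13, 5 and 1, beside 8.98%. The respiratory list was also at 23 without NRF replicate 2, and the mitochondrial ribosomal list at 15 or 16 without DRF replicate 2, NRF replicate 1 or NRF replicate 2. The proteasome list was at 5 without DRF replicate 2 or NRF replicate 1, and the cytosolic ribosomal list ran from 0 to 14, the highest without DRF replicate 2. Cytosolic ribosomal proteins have many pseudogenes, and reads shared with them were not measured here.

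Protein-coding genes of up to 1000 exonic bases had a median log2 difference of -0.26 (322 genes), those of 1000 to 2000 bases -0.18 (1379 genes), and those over 5000 bases -0.02 (5056 genes). Members of the respiratory list had a median length of 1675 bases and those of the cytosolic ribosomal list 1739 bases. Relative to the mean of all 56 libraries, the shortest class lay at -0.28, -0.16, -0.10 and -0.22 in DRF replicates 1 to 4 and at 0.06, 0.08, 0.12 and 0.01 in NRF replicates 1 to 4. Short genes were thus lower in each DRF library, most in replicate 1. Genes over 5000 bases lay at -0.05, -0.13, -0.01 and 0.09 in DRF replicates 1 to 4. In NRF replicates 1 to 4 they lay at 0.04, 0.06, -0.08 and -0.04. DRF replicate 2 was thus low in both classes and showed little trend with length. After the trend with length was removed in each library, an alternative chosen after seeing the data, 13 respiratory, 6 mitochondrial ribosomal, 5 proteasome and 1 cytosolic ribosomal genes were lower. The same step left 13 heat shock chaperones, 12 ER genes and 11 collagens lower and 16 insulin and FOXO responsive genes higher. In that fit 8.23% of all genes were lower and 8.86% higher. Without that step 3 of the 13 mitochondrially encoded messages were higher (median 0.22), against 3.39% of all genes, beside the larger mitochondrial share of reads. They included mt-Nd5 (26795 ± 1629 against 20765 ± 345 TPM), and leaving out any ZT20 library gave 0 or 1 higher members except without DRF replicate 2.

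**Figure D4:**
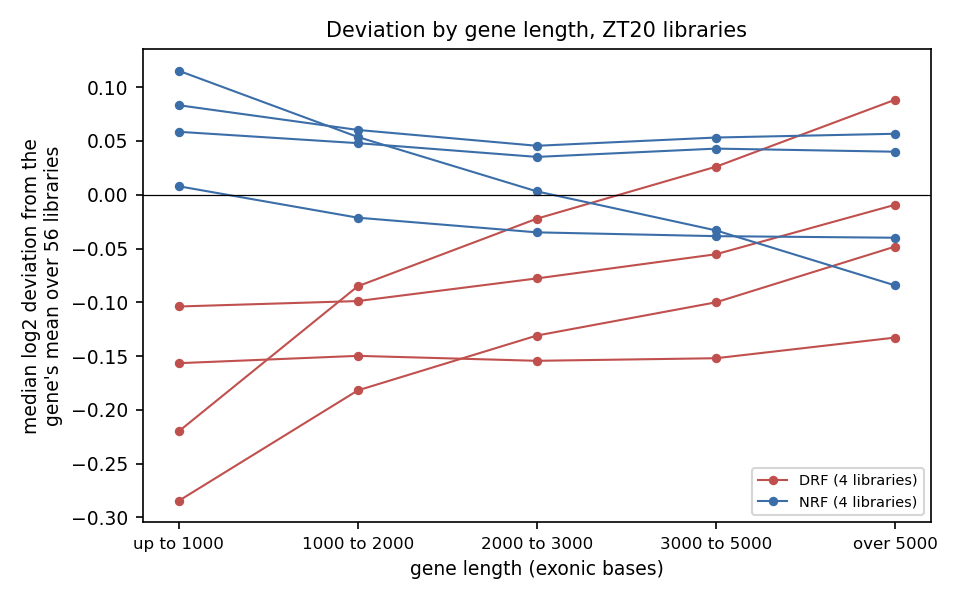
Median log2 deviation of protein-coding genes from their mean over all 56 libraries, by class of gene length (exonic bases), with 1 line for each ZT20 library (4 DRF red, 4 NRF blue). In genes of up to 1000 bases the DRF libraries lie from -0.28 to -0.10 and the NRF libraries from 0.01 to 0.12, and in genes over 5000 bases the regimens overlap.

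Of 32 autophagy and lysosome genes 7 were higher and 5 lower (median -0.02), against 3.39% and 11.4% of all genes, so the lower count was near that of all genes. The higher ones included Gabarapl1, an Atg8 family protein of the autophagosome membrane (149 ± 13.3 against 95.6 ± 1.51 TPM, 0.63 ± 0.12, adjusted p = 0.000337), the initiating kinase Ulk1 (37.9 ± 6.95 against 27.4 ± 1.74 TPM) and its partner Atg13 (34.8 ± 2.12 against 25.9 ± 0.436 TPM, 0.41 ± 0.08). The protease Atg4d was lower (-0.36 ± 0.08). The lower count was 2 or 3 without DRF replicate 1, NRF replicate 1 or NRF replicate 2, or with median-of-ratios scaling. In NAD metabolism 3 of 16 were higher and 1 lower (2 or 3 higher and 0 to 2 lower with a ZT20 library left out), led by the nicotinamide riboside kinase Nmrk2 (17.3 ± 1.66 against 10.3 ± 1.24 TPM, 0.70 ± 0.18). Among 21 NRF2 targets and antioxidants 3 were higher and 2 lower, the latter near the share of all genes, and with median-of-ratios scaling 4 were higher and none was lower. Gclc and Gclm, the subunits of the enzyme that limits glutathione synthesis, were both higher: Gclc was 12.2 ± 0.910 against 8.60 ± 0.623 TPM and Gclm 14.3 ± 0.623 against 9.95 ± 0.228 TPM (adjusted p of 0.00028 and 0.000449).

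Of 13 iron genes 2 were higher and 3 lower, against 3.39% and 11.4% of all genes. Tfrc, the transferrin receptor, was at 22.2, 9.83, 18.9 and 18.3 TPM under DRF and at 32.7, 35.2, 31.1 and 32.5 TPM under NRF (-0.94 ± 0.26, adjusted p = 0.0107). DRF replicate 2 was the lowest by far, and without it the adjusted p was 0.0733. Slc40a1, the iron exporter ferroportin, was higher (9.57 ± 0.610 against 6.79 ± 0.283 TPM, 0.44 ± 0.11), as was heme oxygenase, Hmox1 (24.4 ± 2.07 against 15.6 ± 1.10 TPM), whose adjusted p was 0.051 without DRF replicate 1. The summed hemoglobin markers overlapped widely between the regimens. Of 38 mitochondrial SLC25 carriers 4 were higher and 6 lower, and with median-of-ratios scaling, where 8.68% of all genes were higher and 8.47% lower, 7 were higher and 4 lower. The glutamate carrier Slc25a22 was at 26.8, 25.7, 26.6 and 28.4 TPM under DRF and at 14.5, 15.9, 14.7 and 13.9 TPM under NRF (0.83 ± 0.14, adjusted p = 0.000132), and Slc25a34 was 215 ± 22.8 against 123 ± 16.2 TPM (0.81 ± 0.13).

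The counts of the following lists stand against 3.39% of all genes higher and 11.4% lower. In lipogenesis and desaturation 2 of 19 were higher and 2 lower. Scd2, a stearoyl-CoA desaturase, was at 12.3, 14.2, 14.3 and 15.6 TPM under DRF and at 26.2, 28.8, 23.9 and 31.4 TPM under NRF (-0.92 ± 0.17, adjusted p = 0.000256), opposite in direction to its paralog Scd4. Of 22 cholesterol genes tested 1 was higher and 2 lower, and 0 or 1 were higher and 1 to 3 lower with a ZT20 library left out. In branched-chain amino acid catabolism 1 of 21 was higher and 1 lower, the higher one being Ppm1k, the phosphatase that activates the dehydrogenase (34.4 ± 3.02 against 23.1 ± 1.67 TPM, 0.55 ± 0.11, adjusted p = 0.000506). Of 36 splicing factors 1 was higher, Srsf5 (81.6 ± 5.00 against 47.6 ± 5.98 TPM, 0.77 ± 0.21). In that list 7 were lower, among them Srsf3 (21.3 ± 1.94 against 29.8 ± 3.81 TPM, -0.46 ± 0.11). With mitochondrially encoded genes left out 1 was lower, beside 3.79% of all genes. Of 52 translation initiation factors 2 were higher and 6 lower (median -0.08), close to the shares and the median of all genes, and the lower count was 3 without DRF replicate 1, DRF replicate 2 or NRF replicate 1 or with median-of-ratios scaling, 2 without NRF replicate 2 and 10 without DRF replicate 4. None of 20 aminoacyl-tRNA synthetases passed (limma), and the largest difference among them was -0.33 for Wars. Of 21 proliferation genes 1 was higher and 2 lower, including the cyclin gene Ccnd2 (21.2 ± 2.14 against 29.5 ± 1.02 TPM, -0.46 ± 0.09). Of 23 immediate early genes 1 was higher and 1 lower, and of 5 taurine genes 1 was lower. With a ZT20 library left out the immediate early genes ran from 0 to 2 higher and 0 or 1 lower, and the lower counts of the taurine and branched-chain lists were 0 or 1. No proliferation gene was higher with any ZT20 library left out, and no lipogenesis gene was higher without NRF replicate 1.

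The regimens exchange their feeding state at ZT8, in the light phase, where DRF mice have food and NRF mice do not. The difference between DRF and NRF was tested for a change between ZT20 and ZT8 in the same fit, and 708 genes (5.1%) passed. The count was 1124 without NRF ZT8 replicate 1, 1329 with median-of-ratios scaling and 396 with same-numbered libraries as a replicate block. At ZT8 Pdk4 averaged 65.6 ± 18.2 TPM under DRF and 326 ± 138 TPM under NRF, so the fasted regimen was the higher one at both times. The log2 difference of Pdk4 changed by 6.32 ± 0.65 (adjusted p = 6.76e-09). Angptl4 (1.71 ± 0.789 TPM under DRF, 9.57 ± 5.64 TPM under NRF at ZT8) changed by 4.63 ± 0.82, and Ucp3 (20.5 ± 4.61 and 68.7 ± 33.7 TPM at ZT8) by 3.93 ± 0.61. Cpt1a turned from 0.96 to -0.83 and Slc25a22 from 0.83 to -1.03.

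Other leading genes differed at ZT20 with a small difference at ZT8. Retreg1 (0.03 ± 0.16 at ZT8), Serpinh1 (-0.05 ± 0.18) and Herpud1 (-0.02 ± 0.13) had this form, with changes of 1.28, -1.06 and 0.80. Hsph1 was 16.1 ± 0.970 TPM under DRF and 14.3 ± 4.05 TPM under NRF at ZT8, and its change was -1.07 ± 0.26 (adjusted p = 0.0107). The ZT8 level of Hsph1 in both regimens was close to the 13.9 to 16.9 TPM of the DRF hearts at ZT20. Cry1 stood at 0.30 ± 0.16 at ZT8 against -0.54 at ZT20, a change of -0.84 ± 0.22 (adjusted p = 0.0165). The change of Fbxo32 did not pass (0.63 ± 0.31, adjusted p = 0.257), nor did that of Sesn1 (0.29 ± 0.14, adjusted p = 0.254) or Klf9 (0.49 ± 0.20, adjusted p = 0.16).

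**Figure D5:**
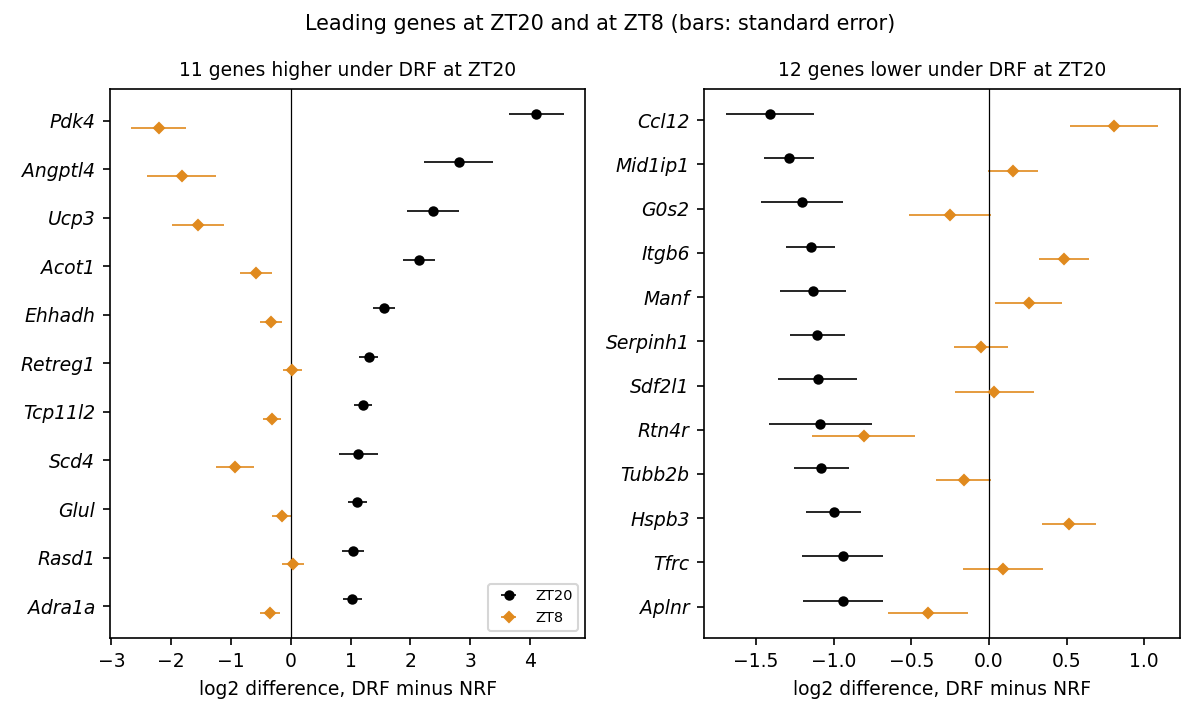
Log2 difference (DRF minus NRF) of 11 leading higher and 12 leading lower genes at ZT20 (black circles) and at ZT8 (orange diamonds), with standard errors as bars. Pdk4 lies at 4.11 at ZT20 and at -2.21 at ZT8, while Retreg1 and Serpinh1 lie close to 0 at ZT8.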

How the data were processed

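Polyadenylated RNA of mouse hearts was sequenced in 56 libraries. Per the labels and the study's methods, libraries were made with a kit that does not mark strand, and HISAT2 (2.0.5), featureCounts (1.5.0-p3) and mm10 are named in the submitters' processing notes. The gene annotation and the strand setting are not given in the sources used here, so a gene and an overlapping antisense gene cannot be told apart. The values deposited by the authors were not linear: each equals a library constant times log2(1 + scaled reads) divided by exon length. Whole reads were recovered (tolerance 0.1 reads) with GENCODE M21 exon lengths for 22004 of 22864 genes and with a length searched from the values for 837, of which 802 lie on chromosomes 17 to 19. A total of 22 genes were too abundant to test for whole reads, and 1 gene was left out. TPM was rebuilt from these reads and lengths. The recovery of reads and the fit were tested on simulated data.

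Groups were taken from the sample names. limma (3.58.1, R 4.3.3) was fitted to log2(TPM + 1) for genes averaging 1 TPM or more across all 56 libraries, with 14 group means and a trended prior, and p-values were adjusted by Benjamini-Hochberg over all 13878 genes at a threshold of 0.05. On this scale the change of genes with low levels is understated. The contrasts were DRF minus NRF at ZT20, and that difference minus the one at ZT8. Genes were named by rule: the 12 largest differences in each direction among genes that passed with both scalings and did not overlap, up to 4 members past the threshold of each list with at least 5 such members and up to 2 of the other lists, the genes the study singled out, and the clock genes. Genes whose promoter stretch is printed, and single members given because they went against their list, were added after values were seen. A few genes are not reported here. The members and lists were chosen with earlier results of these data known. Promoters were RefSeq sequences (GRCm38.p6, 250 bases before the start, both strands), matched by symbol. Alternatives covered scaling, pseudocount, filter, threshold, fitted libraries, voom weights, the quantity inside the deposited values, a replicate block, and each library left out. Removal of a length trend was chosen after seeing the data.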

Additional observations from a re-analysis of the deposited data

Results flagged for a closer look

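The log2 difference between DRF and NRF at ZT20 minus that at ZT8 was past the threshold (limma, adjusted p under 0.05, tested over all genes) for 69 of the 142 genes chosen by rule, and for 5.1% of all genes. Most of the 142 were chosen for their difference at ZT20, which is part of this contrast, so that choice favoured both a pass and an opposite sign at ZT8, and nothing is read from either count. In 62 of them the ZT8 difference had the opposite sign, and in 7 the same sign, but many of the ZT8 differences were close to 0 and 7 of the 69 passed the threshold at ZT8 (Pdk4, Cpt1a, Mlycd, Mt2, Slc25a22, Slc25a34 and Cyp1a1). Bnip3, for example, was at -0.01 ± 0.13 at ZT8.

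Among the genes with opposite signs, the changes of those higher under DRF at ZT20 were 6.32 for Pdk4, 4.63 for Angptl4, 3.93 for Ucp3, 2.74 for Acot1, 2.45 for Mt2, 2.06 for Scd4, 1.89 for Ehhadh and 1.85 for Slc25a22. Then came 1.79 for Cpt1a, 1.52 for Tcp11l2, 1.51 for Gpam, 1.47 for Slc25a34, 1.43 for Mt1, 1.42 for Txnip, 1.38 for Adra1a and 1.26 for Glul. Smaller ones were 1.20 for Lipe, 1.10 for Cdkn1a, 1.06 for Hmox1, 1.06 for Mlycd, 1.05 for Pdp2, 0.96 for Srsf5, 0.82 for Slc40a1, 0.82 for Npas2 and 0.80 for Herpud1. Next came 0.78 for Gabarapl1, 0.74 for Zfp36, 0.72 for Plin4, 0.71 for Gclm, 0.70 for Pde3a, 0.70 for Kcnd2, 0.68 for Ulk1, 0.63 for Bnip3 and 0.62 for Gclc. The remaining ones were 0.54 for Atg13 and 0.36 for Eif2a.

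Among genes lower under DRF at ZT20, Cyp1a1, a target of the aryl hydrocarbon receptor, changed by -5.13. Its difference at ZT20 was -0.93 (adjusted p = 0.33), and at ZT8 it was 4.19 (61.3 ± 41.5 TPM under DRF and 2.08 ± 0.954 TPM under NRF, adjusted p = 0.000158). The other changes began with -2.22 for Ccl12, -1.63 for Itgb6, -1.52 for Hspb3, -1.44 for Mid1ip1, -1.39 for Manf, -1.36 for Scd2, -1.07 for Hsph1, -1.01 for Hyou1 and -0.98 for Hsp90aa1. Next in size were -0.87 for Kcnj5, -0.84 for Cry1, -0.84 for Hcn4, -0.77 for Chordc1, -0.69 for Hspb1, -0.65 for Ndufs6, -0.62 for Slc16a1 and -0.57 for Ndufa1. The smallest were -0.56 for Srsf3, -0.56 for Slc25a35, -0.53 for Dnaja4, -0.45 for Steap3, -0.45 for Hnrnph3, -0.44 for Mrpl18, -0.38 for Hnrnpm and -0.38 for Atg4d. The 7 genes with the same sign at both times changed by 0.49 for Esrrg, 0.54 for Ppm1k, -0.32 for Psmb7, 1.00 for Rasd1, 1.28 for Retreg1, -1.06 for Serpinh1 and -0.92 for Tubb2b.

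Within the ZT20 groups of 4, 1 library stood far from the other 3 in 25 of 284 gene groups examined (its gap to the nearest, as a share of the range, was above Dixon's critical value), where chance gives about 1 in 20. They were Acox3 in a DRF heart (4.03 TPM), Angptl4 in a NRF heart (4.51 TPM), Calr in a NRF heart (286 TPM), Cyp1a1 in a NRF heart (13.9 TPM), Dnaja1 in a DRF heart (21.9 TPM), Esrrg in a DRF heart (13.5 TPM), Fbxo32 in a DRF heart (49.5 TPM), Hcn4 in a NRF heart (6.79 TPM) and Hyou1 in a NRF heart (28.7 TPM). The others were Mlycd in a DRF heart (90.8 TPM), Mrpl12 in a DRF heart (156 TPM), Nr1d2 in a DRF heart (24.1 TPM), Per1 in a DRF heart (18.4 TPM), Per2 in a DRF heart (4.93 TPM), Per3 in a DRF heart (2.97 TPM), Psmb10 in a DRF heart (41.3 TPM) and Psmb5 in a DRF heart (165 TPM), and Psmb7 in a DRF heart (72.5 TPM), Rpl24 in a DRF heart (9.53 TPM), Rplp2 in a NRF heart (303 TPM), Rtn4r in a DRF heart (7.44 TPM), Slc25a35 in a NRF heart (5.08 TPM), Tnnc1 in a NRF heart (2996 TPM), Wars in a NRF heart (38.2 TPM) and mt-Cytb in a NRF heart (57092 TPM).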

How the results depend on the processing

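Of the 125 named genes past the threshold, 87 kept their call without each ZT20 library and 81 under each of the 11 other alternatives, 78 under both, and none changed sign. At an adjusted p under 0.01 the counts were 864 in all, 211 higher and 653 lower, and 261 for the change between ZT20 and ZT8. Scaling moved the direction: 1204 genes were higher with median-of-ratios scaling, and 1156 higher and 575 lower with mitochondrially encoded genes left out. With reads scaled by the authors' own depth constants fitted in place of TPM, 1233 were higher, but there the fitted quantity and the scaling changed together. With the length trend removed, chosen after seeing the data, 1229 were higher. The change between ZT20 and ZT8 gave 1329 genes with median-of-ratios scaling, 1361 with the authors' constants, 1267 with voom weights and 1474 with the length trend removed. The causes were not tested. Leaving out 1 library gave 1165 to 2215 genes in all, 294 to 553 higher, 855 to 1856 lower and 488 to 1124 for the change. The lowest total, lower count and the 310 higher genes came without DRF replicate 1, and 294 were higher without NRF replicate 3. Without NRF replicates 1 and 2 in turn, 961 and 973 were lower. Same-numbered libraries share only a number: their deviations correlated at -0.02, -0.05, 0.02 and -0.10, and no DRF library correlated best with its own number. With a replicate block 1528 genes passed at ZT20 and 396 for the change. Among genes that did not pass, Cry2 ran from -0.056 to 0.073 with 1 library left out and was below 0 without DRF replicate 3 or 4, and Tef turned to 0.000702 with mitochondrially encoded genes left out. With 4 hearts a group, small differences of short genes and the length trend cannot be told apart, and low genes such as Npas2 rested on a mean of 185 reads under DRF and 90.8 under NRF.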
